A study of Mus musculus with 2 samples.

Results

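The 40 genes described here encode subunits and partners of the Polycomb and trithorax group complexes. They are a list of names, drawn up with earlier results of these data known and with no rule on their reads, 40 of the 22359 protein-coding genes with a transcription start site (TSS) in the annotation used. Of these, 25 belong to the Polycomb side, with 7 genes of Polycomb repressive complex 2 (PRC2), 16 of PRC1 and 2 of the Polycomb deubiquitinase complex (PR-DUB). The other 15 encode activating complexes, with 8 trithorax and COMPASS genes, 5 SWI/SNF genes and 2 CHD remodeller genes. Chromatin of wild type mouse embryonic stem cells (mESCs) was precipitated with an antibody against Msl1 or against Nsl1 and sequenced, with 1 library per antibody. The cells are labelled E14, passage P26, genotype wt, on a 129P2/OlaHsd background. Msl1 and Nsl1 belong to different complexes, MSL and NSL, that share the histone H4 acetyltransferase Mof, and the question addressed is how the binding of these complexes compares. The genes are described as places where Msl1 and Nsl1 reads lie. No RNA or protein of the 40 genes is part of these data, and the cells are 1 line at 1 passage.

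Polycomb complexes keep developmental genes silent. PRC2 methylates histone H3 at lysine 27, PRC1 binds this mark and ubiquitinates histone H2A, and PR-DUB removes the ubiquitin. Trithorax and COMPASS complexes methylate histone H3 at lysine 4 and oppose Polycomb, and SWI/SNF and CHD enzymes move or remodel nucleosomes with the energy of ATP. In mESCs many developmental genes carry the marks of both systems at once.

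With 1 read kept per position and strand, the Msl1 library held 19483142 reads and the Nsl1 library held 24883001 reads. Reads within 500 bases of the TSS, on either side, were divided per kb by the local level, which is that library's number of reads per kb between 5 and 50 kb away, upstream and downstream. A value of 1 is the level of the neighbourhood. The 95% intervals are given after the values as "lower to upper" and cover counting error only. At the 40 genes, the windows of 500 bases on either side held between 5 and 84 Msl1 reads and between 7 and 107 Nsl1 reads. Most intervals are therefore wide. A difference between Msl1 and Nsl1 compares 1 library with another, made with different kits and read lengths of 50 and 36 bases, and the antibody and the library cannot be told apart. All members have a TSS in the annotation. Of the 40, 39 held 20 or more reads when the libraries were added up, which was asked of the 17430 TSSs of the background, and Dpy30, with 14, is counted with the members throughout. As a check of the cells, the Msl1 ratio at the 4 mESC genes Pou5f1, Nanog, Sox2 and Zfp42 ranged from 1.53 to 5.20, and at 6 genes of other tissues from 0.81 at Ins2 to 3.20 at Myod1. These ranges overlap, with Sox2 below Myod1, so the ratio within 500 bases cannot tell the cell type. In wider windows the Msl1 ranges of these genes lay apart. Within 2 kb of the TSS they were 2.47 to 4.14 at the 4 mESC genes and 0.77 to 1.74 at the 6 others. From 500 to 2000 bases downstream they were 4.14 to 6.91 and 0.68 to 1.76. With 4 and 6 genes this is a description only.

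The sequences just upstream of the TSS are shown for the genes at the ends of the comparisons below. Bap1 held the highest Msl1 ratio and Rbbp5 the highest Nsl1 ratio, Eed had the lowest Msl1 ratio relative to Nsl1, and Arid1a and Dpy30 held the lowest Nsl1 ratios at the TSS used and much higher ones at another TSS. Each sequence is from mm9, is written 5′ to 3′ along the gene and ends at the base before the TSS. Capitals mark a GC box (GGGCGG on either strand), CCAAT (either strand) or TATAAA where these letters occurred.
Bap1, chr14:32064555-32064674, plus strand: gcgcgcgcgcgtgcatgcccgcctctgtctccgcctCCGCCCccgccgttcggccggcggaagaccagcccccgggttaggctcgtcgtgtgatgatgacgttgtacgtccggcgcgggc
Rbbp5, chr1:134373824-134373943, plus strand: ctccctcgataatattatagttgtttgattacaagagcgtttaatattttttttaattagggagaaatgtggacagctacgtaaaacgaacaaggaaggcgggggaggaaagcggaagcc
Eed, chr7:97129494-97129613, minus strand: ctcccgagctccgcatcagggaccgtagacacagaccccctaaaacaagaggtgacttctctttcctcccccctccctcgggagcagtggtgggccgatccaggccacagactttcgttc
Arid1a, TSS used, chr4:133309527-133309646, minus strand: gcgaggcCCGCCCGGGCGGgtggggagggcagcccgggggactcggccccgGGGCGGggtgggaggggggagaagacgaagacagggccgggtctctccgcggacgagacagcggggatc
Arid1a, TSS 3158 bases upstream, chr4:133312685-133312804, minus strand: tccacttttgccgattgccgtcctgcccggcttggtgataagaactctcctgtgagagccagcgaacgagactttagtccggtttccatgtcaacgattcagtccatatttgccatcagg
Dpy30, TSS used, chr17:74723285-74723404, minus strand: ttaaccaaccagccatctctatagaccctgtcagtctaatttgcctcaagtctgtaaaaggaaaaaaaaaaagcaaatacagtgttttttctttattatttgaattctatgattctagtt
Dpy30, TSS 7550 bases downstream, chr17:74715735-74715854, minus strand: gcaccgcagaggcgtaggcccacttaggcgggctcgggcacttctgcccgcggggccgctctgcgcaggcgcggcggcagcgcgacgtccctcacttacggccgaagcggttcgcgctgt
The stretch at the Dpy30 TSS used held 0 CpG dinucleotides and the stretch at its other TSS held 19. At Bap1 there were 21, at the Arid1a TSS used 14, and at Rbbp5 and Eed 6 each. The TSSs of other genes described in detail lie on mm9 at 47545029 of chromosome 6 (Ezh2), 79806608 of chromosome 11 (Suz12), 44826143 of chromosome 13 (Jarid2), 108494761 of chromosome 5 (Mtf2), 34769496 of chromosome 2 (Phf19), 122289676 of chromosome 6 (Phc1), 15841931 of chromosome 17 (Chd1) and 125046180 of chromosome 6 (Chd4).

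Most of the 40 genes held more Msl1 and Nsl1 reads at the TSS than their neighbourhood. The interval of the Msl1 ratio lay above 1 at 31 of the 40 genes (77.5%, against 66.4% of all 17430 TSSs), and that of the Nsl1 ratio at 28 (70%, against 62.7%). The median Msl1 ratio was 2.18 (1.91 to 2.74) over the members and 2.21 over all TSSs. The median Nsl1 ratio was 2.0 (1.68 to 2.52) against 2.02. By these medians the members lay at the level of an ordinary TSS in both libraries. This depended on the denominator. Over the level of the whole genome, 30 of 40 members reached 3 for Msl1 (against 53.7% of all TSSs) and 24 for Nsl1 (against 41.1%). The local levels around the members were higher than around other TSSs, as given below. The intervals of the medians treat genes as independent. Cbx2 and Cbx8 lie 18007 bases apart and share most of their local reads.

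Strong sites were no more frequent than elsewhere. A ratio of at least 3 was reached by 11 of 40 members for Msl1 (27.5%, against 29.3% of all TSSs) and by 9 for Nsl1 (22.5%, against 29.8%). It was reached in both libraries by 6 genes, Bap1, Cxxc1, Ezh2, Mtf2, Phc3 and Rbbp5 (15%, against 14.6%), and in neither by 26 (65%, against 55.5%). The 5 genes that reached it for Msl1 alone were Ash2l, Phc1, Phf19, Ring1 and Smarcb1, and the 3 for Nsl1 alone were Eed, Pcgf1 and Setd1a. Near the threshold, Phc3 at 3.07 and Smarcb1 at 3.08 lay just inside it for Msl1, and Chd4 at 2.86 and Cbx2 at 2.85 just outside. Every one of these 4 intervals includes 3. Of the genes counted for Msl1, only Bap1 and Mtf2 had an interval wholly above 3. Of those counted for Nsl1, only Bap1, Eed and Rbbp5 had one. Being counted for Msl1 alone or Nsl1 alone is thus not always a difference between the libraries. The interval of the Msl1 ratio over the Nsl1 ratio included 1 at Ash2l, Ring1, Smarcb1 and Pcgf1. It did not at Phc1, Phf19, Eed and Setd1a.

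**Figure D1:**
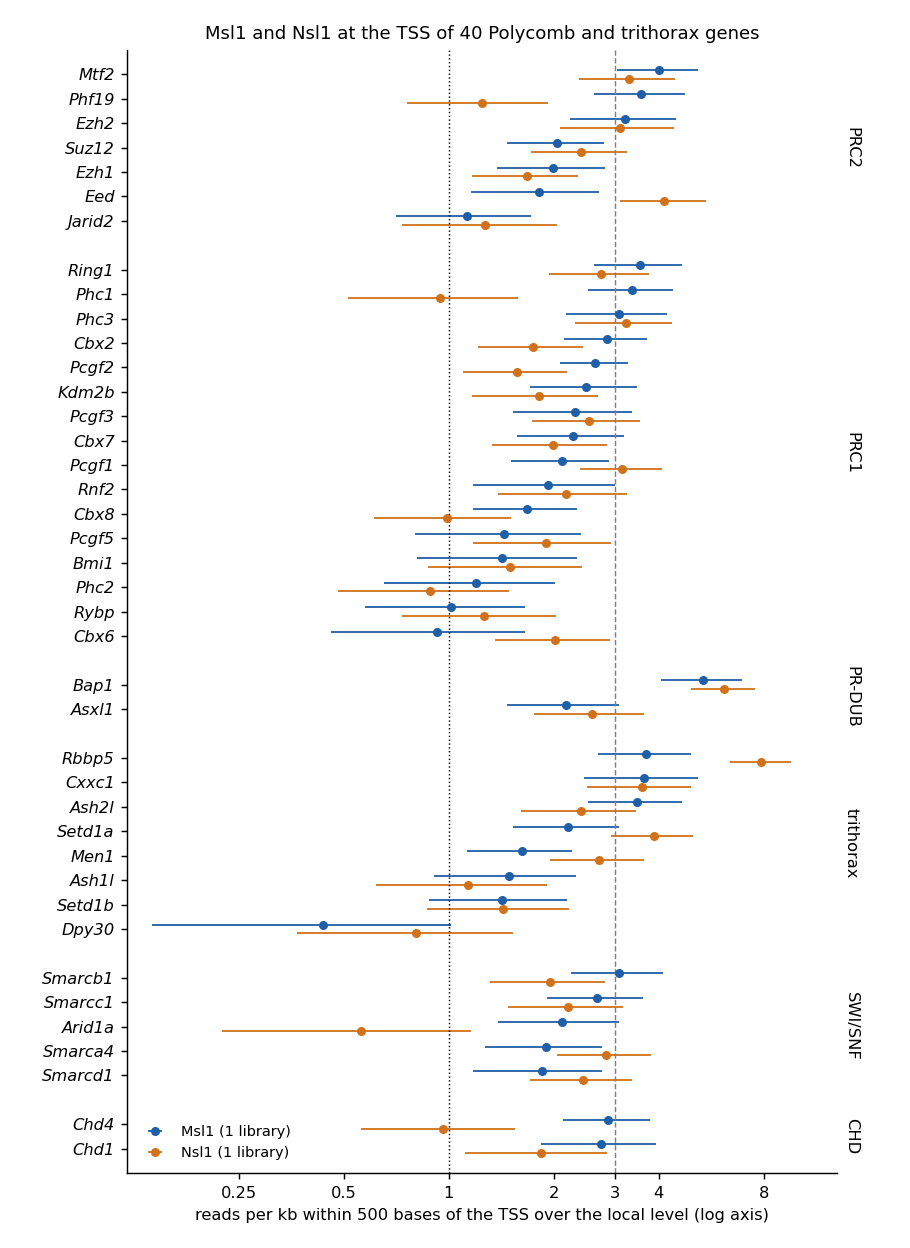
Reads per kb within 500 bases of the TSS over the local level (log axis) for the 40 genes, grouped by complex, with 95% counting intervals. Blue is the Msl1 library, orange the Nsl1 library, the dotted line marks 1 and the dashed line 3; Bap1 is highest for Msl1 (5.36) and Rbbp5 for Nsl1 (7.87), and at the TSS used Dpy30 is lowest for Msl1 (0.44) and Arid1a for Nsl1 (0.56).

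The values of Polycomb and activating genes overlapped widely. The median Msl1 ratio was 2.16 (1.81 to 2.85) over the 25 Polycomb genes and 2.20 (1.62 to 3.08) over the 15 activating genes. The median Nsl1 ratio was 1.99 (1.57 to 2.57) against 2.21 (1.14 to 2.82). Of the 25 Polycomb genes 7 reached 3 for Msl1 and 6 for Nsl1, and of the 15 activating genes 4 and 3. Over all TSSs it was reached by 29.3% for Msl1 and 29.8% for Nsl1. The intervals leave room for a difference in either direction, and with 15 and 25 genes a difference smaller than these widths was not detectable. Within 2 kb of the TSS the medians were again close, at 1.94 (1.76 to 2.12) and 2.0 (1.69 to 2.55) for Msl1 and at 1.36 (1.27 to 1.49) and 1.33 (1.12 to 1.68) for Nsl1.

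At the TSSs used of 4 of the 7 PRC2 genes, Ezh2, Eed, Suz12 and Jarid2, Msl1 lay farther along the gene than Nsl1. The level from 500 to 2000 bases over that at the TSS was higher for Msl1 with intervals that did not overlap those of Nsl1, and at Ezh1, Mtf2 and Phf19 the intervals overlapped. They also overlapped at the Jarid2 TSS 1239 bases upstream, at 0.90 (0.52 to 1.55) for Msl1 and 0.77 (0.40 to 1.51) for Nsl1. At the Ezh2 TSS 17370 bases downstream Msl1 was the lower, at 0.44 (0.22 to 0.83) against 1.25 (0.50 to 3.40). Over all 40 members the Msl1 interval lay above the Nsl1 interval in this way at 13 (32.5%, against 17.7% of all TSSs) and below it at 0 (against 0.74%). The medians of this value over all TSSs were 0.78 for Msl1 and 0.58 for Nsl1, so the order is also that of an ordinary TSS. Ezh2 and Ezh1 encode the alternative methyltransferases of the complex. At Ezh2 the Msl1 library held 35 reads within 500 bases, 3.21 times the local level (2.22 to 4.50), and the Nsl1 library held 31, 3.09 times (2.09 to 4.42). The ratios differed by less than their counting error, but 80% (63.1 to 91.6) of those Msl1 reads lay downstream of the TSS and 16.1% (5.45 to 33.7) of the Nsl1 reads. Ezh1 held 34 Msl1 reads, 2.0 times the local level (1.38 to 2.80), and 35 Nsl1 reads, 1.68 times (1.17 to 2.34). Its intervals lay above 1 in both libraries and below 3.

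Eed, the subunit that reads methylated lysine 27, had the lowest Msl1 relative to Nsl1 of all 40 genes at the TSS. It held 24 Msl1 reads and 54 Nsl1 reads within 500 bases, 1.81 (1.16 to 2.71) and 4.15 (3.10 to 5.46) times the local levels. The Msl1 ratio was 0.44 of the Nsl1 ratio (0.26 to 0.72). In the next bin along the gene, from 500 to 1000 bases, the order was reversed, with 50 Msl1 reads, 7.54 times the local level, and 11 Nsl1 reads, 1.69 times. Within 1000 bases of the TSS in place of 500, the Msl1 ratio was therefore 1.33 times the Nsl1 ratio. Eed is a gene where Nsl1 reads lay on the TSS and Msl1 reads behind it.

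Suz12, which holds the PRC2 core together, had the same shape. It held 42 Msl1 reads within 500 bases, 2.05 times the local level (1.47 to 2.78), and 119 from 500 to 2000 bases downstream, 3.87 times. The Nsl1 reads were 43, 2.39 times (1.73 to 3.24), and 23 downstream, 0.85 times. Jarid2, a DNA-binding cofactor that recruits PRC2, had almost no excess at the TSS used, with 22 Msl1 reads, 1.13 times (0.71 to 1.72), and 17 Nsl1 reads, 1.27 times (0.74 to 2.04). From 1500 to 2000 bases downstream it held 44 Msl1 reads, 4.53 times the local level, and 4 Nsl1 reads, 0.60 times. Counting within 500 bases on either side of the TSS used thus missed these downstream Msl1 reads of Jarid2.

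The cofactors Mtf2 and Phf19, both Polycomb-like proteins that help PRC2 onto CpG islands, held their Msl1 reads at the TSS itself. Mtf2 held 60 Msl1 reads, 4.01 times the local level (3.04 to 5.19), the next highest ratio after Bap1, and 43 Nsl1 reads, 3.29 times (2.37 to 4.46). Of its Msl1 reads, 48 lay in the 500 bases downstream of the TSS and 12 in the 500 bases upstream. Phf19 held 48 Msl1 reads, 3.56 times (2.61 to 4.75), and 20 Nsl1 reads, 1.24 times (0.76 to 1.93). Its Msl1 ratio was 2.86 times its Nsl1 ratio (1.67 to 5.09), which places it among the 4 genes with the most Msl1 relative to Nsl1.

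**Figure D2:**
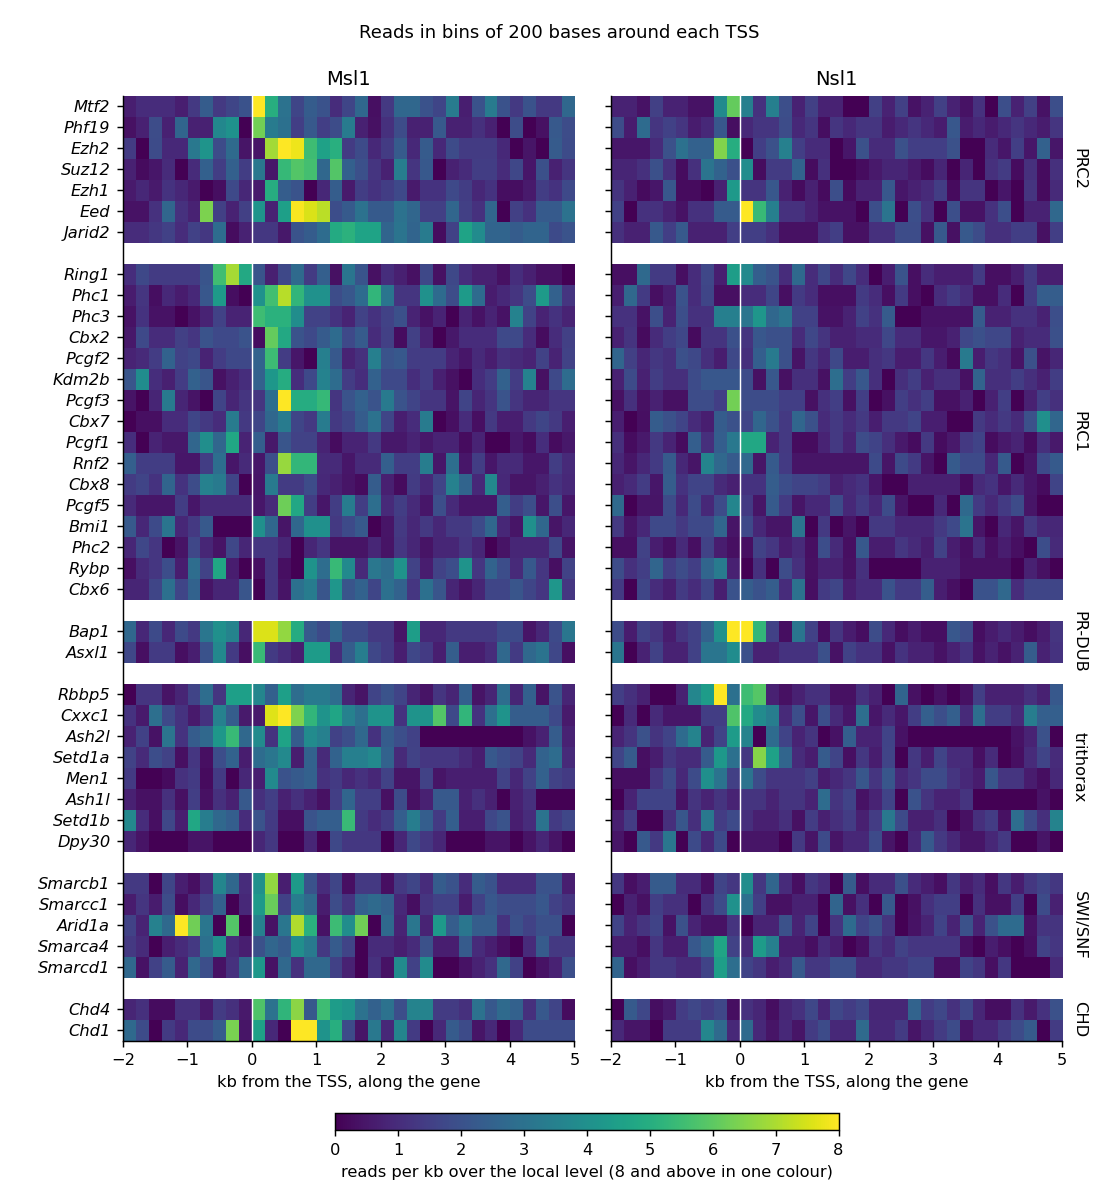
Reads per kb over the local level in bins of 200 bases from 2000 bases upstream to 5 kb downstream of each TSS, with Msl1 at left and Nsl1 at right, on 1 colour scale. Msl1 reads of Ezh2, Suz12, Eed, Jarid2, Chd1 and Cxxc1 lie mostly downstream of the white TSS line, and Nsl1 reads of Rbbp5, Bap1 and Eed lie at it.

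Among the PRC1 genes, Ring1 and Rnf2 (Ring1B) encode the ubiquitin ligases. Ring1 held 51 Msl1 reads, 3.53 times the local level (2.61 to 4.67), and 40 Nsl1 reads, 2.74 times (1.95 to 3.75). Of the Msl1 reads of Ring1, 19.6% (9.82 to 33.1) lay downstream of the TSS, against a median of 64.6% over the 40 genes. Rnf2 held 20 Msl1 reads, 1.93 times (1.17 to 3.0), and 24 Nsl1 reads, 2.17 times (1.38 to 3.25). From 500 to 1000 bases it held 28 Msl1 reads, 5.40 times the local level.

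The PCGF proteins pair with the ligases and define the PRC1 variants. At the TSSs used, their genes ranged from 1.43 at Bmi1 (Pcgf4) to 2.63 at Pcgf2 (Mel18) for Msl1. For Nsl1 they ranged from 1.5 at Bmi1 to 3.15 at Pcgf1. Pcgf2 held the most Msl1 reads of any member, 84 within 500 bases, but its neighbourhood was also the richest, with 31.9 Msl1 reads per kb against a median of 11.1 over all TSSs. Pcgf1, the partner in the Kdm2b-bound variant, held 40 Msl1 reads, 2.11 times (1.5 to 2.89), and 59 Nsl1 reads, 3.15 times (2.38 to 4.08). Pcgf3 held 28 and 34 reads, 2.31 and 2.52 times, and Pcgf5 held 15 and 21, 1.44 and 1.90 times. All 16 Msl1 reads of Bmi1 lay downstream of its TSS, which with so few reads means a share of at least 79.4%.

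The CBX proteins, which bind methylated lysine 27, fell on both sides of the comparison. Cbx2 held 56 Msl1 reads, 2.85 times the local level (2.14 to 3.71), and 36 Nsl1 reads, 1.74 times (1.22 to 2.42). Cbx8 held 36 and 21, 1.68 (1.17 to 2.33) and 0.99 (0.61 to 1.51) times. In both, the Msl1 ratio was higher, by 1.63 (1.05 to 2.55) and 1.70 (0.97 to 3.07) times, and the second interval includes 1. Cbx7, the main CBX protein of PRC1 in mESCs, held 34 and 30 reads, 2.27 and 1.99 times. Cbx6 went the other way, with 11 Msl1 reads, 0.92 times (0.46 to 1.66), and 30 Nsl1 reads, 2.02 times (1.36 to 2.90), so that its Msl1 ratio was 0.46 of its Nsl1 ratio (0.21 to 0.94). Cbx6 has another TSS, of Npcd on the same strand, 477 bases downstream of its own, and reads of the pair cannot be told apart.

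The polyhomeotic proteins join PRC1 into larger assemblies. Phc1 held 54 Msl1 reads, 3.35 times the local level (2.51 to 4.40), and 14 Nsl1 reads, 0.94 times (0.51 to 1.59). Its Msl1 ratio was 3.56 times its Nsl1 ratio (1.95 to 6.94), and within 2 kb it held 173 Msl1 and 59 Nsl1 reads. Phc3 held 39 and 42 reads, 3.07 (2.17 to 4.22) and 3.22 (2.31 to 4.38) times. Phc2 held 14 in each library, 1.19 (0.65 to 2.01) and 0.88 (0.48 to 1.49) times. At the TSSs used, the 3 related genes thus ranged from Msl1 alone over both to neither. For Phc1 and Phc2 this depended on the TSS, as given below.

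Rybp and Kdm2b belong to the variant PRC1 complexes, Rybp as a stimulator of the ligase and Kdm2b as the subunit that binds CpG islands. Rybp held 16 Msl1 reads, 1.01 times the local level (0.58 to 1.65), and 17 Nsl1 reads, 1.26 times (0.73 to 2.03). From 1000 to 1500 bases downstream it held 34 Msl1 reads, 4.31 times. Kdm2b held 35 and 25 reads, 2.47 (1.72 to 3.46) and 1.81 (1.17 to 2.69) times.

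Bap1, the deubiquitinase of PR-DUB, held the highest ratio within 500 bases of all Polycomb genes in both libraries. It held 60 Msl1 reads, 5.36 times the local level (4.06 to 6.95) and above 96.9% of all TSSs, and 99 Nsl1 reads, 6.15 times (4.97 to 7.55) and above 92.2%. The Nsl1 reads were split evenly by the TSS, with 48 in the 500 bases upstream and 51 in the 500 bases downstream, and 71.7% (58.6 to 82.5) of the Msl1 reads lay downstream. The TSS of Phf7, on the opposite strand, lies 271 bases upstream of that of Bap1, and reads of the pair cannot be told apart. Asxl1, the cofactor that activates Bap1, held 32 Msl1 reads, 2.16 times (1.47 to 3.07), and 33 Nsl1 reads, 2.57 times (1.76 to 3.63).

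Rbbp5, a core subunit of all COMPASS methyltransferases, held the highest Nsl1 ratio of the 40 genes. It held 107 Nsl1 reads within 500 bases, 7.87 times the local level (6.40 to 9.59) and above 95.5% of all TSSs, and 45 Msl1 reads, 3.69 times (2.67 to 4.97). Of the Nsl1 reads 74 lay in the 500 bases upstream, and from 500 to 2000 bases downstream 14 were left, 0.69 times the local level. The Nsl1 signal of Rbbp5 was the most sharply placed of the members, with a downstream level of 0.09 of that at the TSS (0.05 to 0.15). Its Msl1 ratio was 0.47 of its Nsl1 ratio (0.32 to 0.67).

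The other core subunits differed from it. Ash2l held 45 Msl1 reads, 3.47 times (2.52 to 4.67), and 30 Nsl1 reads, 2.40 times (1.61 to 3.44). Dpy30 held 5 and 9 reads at the TSS used, 0.44 (0.14 to 1.02) and 0.80 (0.37 to 1.53) times, which were the lowest Msl1 ratio and the next lowest Nsl1 ratio of the 40. These 3 proteins work in the same complex, and their TSSs ran from 0.44 to 3.69 for Msl1 and from 0.80 to 7.87 for Nsl1. For Dpy30 this rests on the TSS, as given below.

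The subunits that belong to particular COMPASS complexes were mixed as well. Setd1a, a lysine 4 methyltransferase, held 35 Msl1 reads, 2.20 times (1.53 to 3.08), and 59 Nsl1 reads, 3.87 times (2.93 to 5.02), while its relative Setd1b held 21 and 20, 1.43 (0.88 to 2.19) and 1.43 (0.87 to 2.21) times. Cxxc1, which brings these enzymes to unmethylated CpG, held 31 Msl1 reads, 3.63 times (2.45 to 5.20), and 37 Nsl1 reads, 3.57 times (2.50 to 4.96). Men1 (menin), a subunit of the MLL complexes, held 36 and 44, 1.62 (1.13 to 2.25) and 2.69 (1.95 to 3.63) times. Setd1a and Men1 had more Nsl1 than Msl1, at 0.57 (0.36 to 0.88) and 0.60 (0.38 to 0.96). For Men1 this order depended on the TSS and on the denominator, since the value was 1.29 (0.80 to 2.13) at a TSS 482 bases downstream and 1.04 with the level of the whole genome as denominator. Ash1l, a trithorax protein that methylates lysine 36, held 20 and 14 reads, 1.49 (0.91 to 2.31) and 1.14 (0.62 to 1.92) times. Its annotated TSS held 10 CpG dinucleotides within 500 bases, against a median of 88 over the members, and no other full-length protein-coding TSS of Ash1l is annotated, so its values rest on this TSS.

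At the TSSs used, the Msl1 ratios of the SWI/SNF genes ran from 1.85 to 3.08. For Nsl1 Arid1a lay apart from the others, which depended on the TSS, as given below. The ATPase gene Smarca4 (Brg1) held 29 Msl1 and 45 Nsl1 reads, 1.91 (1.27 to 2.75) and 2.82 (2.05 to 3.79) times. The core subunits Smarcb1, Smarcc1 and Smarcd1 had Msl1 ratios of 3.08, 2.66 and 1.85 and Nsl1 ratios of 1.96, 2.21 and 2.44. All of these intervals lay above 1. Arid1a, which directs the BAF form of the complex, held 27 Msl1 reads, 2.11 times (1.38 to 3.09), and 7 Nsl1 reads, 0.56 times (0.22 to 1.16), the lowest Nsl1 ratio of the 40. The Msl1 ratio was 3.77 times the Nsl1 ratio (1.6 to 10.3), the highest of the members, with a wide interval. At another TSS of Arid1a, 3158 bases upstream, it was 1.29 (0.84 to 1.99), and at the third TSS, 29732 bases downstream, 2.20 (0.83 to 6.83), so the interval lay above 1 at the TSS used alone.

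Chd1 and Chd4 are nucleosome remodellers. Chd1 binds methylated lysine 4, and Chd4 is the motor of the NuRD complex, which also deacetylates histones, so it is no purely activating protein. Chd4 held 52 Msl1 reads, 2.86 times the local level (2.13 to 3.77), and 17 Nsl1 reads, 0.96 times (0.56 to 1.55), and its Msl1 ratio was 2.97 times its Nsl1 ratio (1.69 to 5.49). The Msl1 reads began at the TSS and went on over 4 bins of 500 bases, with 42, 41, 44 and 27 reads, after 10 in the bin before it. Chd1 held 30 Msl1 and 20 Nsl1 reads, 2.74 (1.84 to 3.94) and 1.83 (1.12 to 2.85) times, with its highest Msl1 bin from 500 to 1000 bases, at 39 reads and 7.13 times the local level.

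Set against each other at the TSS, the libraries differed beyond counting error at 11 members. The interval of the Msl1 ratio over the Nsl1 ratio lay above 1 at 6 genes (15%, against 14.5% of all TSSs), Arid1a, Phc1, Chd4, Phf19, Pcgf2 and Cbx2, below 1 at 5 (12.5%, against 19.5%), Eed, Cbx6, Rbbp5, Setd1a and Men1, and included 1 at 29. At other TSSs of the same gene the interval came to include 1 at Arid1a and Phc1, as given with them, at Pcgf2, at 1.07 (0.69 to 1.67) 856 bases and 0.54 (0.28 to 1.01) 8090 bases downstream, at Setd1a, at 0.62 (0.37 to 1.01) 719 bases downstream, at Cbx6, at 0.62 (0.33 to 1.13) 462 bases downstream, and at Men1. At another TSS the interval came to lie above 1 at Bmi1, at 2.73 (1.37 to 5.80) 789 bases and 2.70 (1.22 to 6.57) 3976 bases downstream, at Ash2l, at 2.38 (1.31 to 4.56) 702 bases downstream, at Ezh2, at 2.75 (1.21 to 7.03) 17370 bases downstream, and at Kdm2b, at 3.52 (1.87 to 7.09) 566 bases downstream. At the Kdm2b TSS 88744 bases downstream it lay below 1, at 0.49 (0.23 to 0.97). By size alone, the Msl1 ratio was at least 1.5 times the Nsl1 ratio at 8 genes (20%, against 23.5% of all TSSs), the 6 just named together with Cbx8 and Smarcb1. The Nsl1 ratio was at least 1.5 times the Msl1 ratio at 6 genes (15%, against 28.0%), the 5 just named together with Dpy30. The median was 0.95 (0.87 to 1.29) over the Polycomb genes, 1.02 (0.60 to 1.49) over the activating genes and 0.96 over all TSSs. As a description across genes, which are not replicates, Spearman's rho between the Msl1 and Nsl1 ratios was 0.44 over the 40 members and 0.49 over all TSSs. The points share the cells, the region sizes and the base composition.

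More of the members than of all TSSs held a high Msl1 level downstream of the TSS. From 500 to 2000 bases downstream the Msl1 level was at least 3 times the local level at 10 of 40 genes (25%, against 14.4% of all TSSs). These were the PRC2 genes Eed, Suz12, Ezh2 and Jarid2, the PRC1 genes Phc1 and Pcgf3, and Cxxc1, Arid1a, Chd1 and Chd4. At Arid1a, with 4.06 downstream, the highest Msl1 bin of 500 bases lay upstream of the TSS used. It ran from 1500 to 1000 bases before that TSS and held 51 reads, 7.97 times the local level. The list depended on the TSS. At other TSSs the level was below 3 at Ezh2 (0.92, 17370 bases downstream), Arid1a (2.83, 3158 bases upstream) and Jarid2 (1.18, 1239 bases upstream). At Phc1 it was 2.81 and 2.46, 794 and 2643 bases downstream. It stayed above 3 at the Jarid2 TSS 513 bases downstream (3.82) and the Phc1 TSS 566 bases upstream (4.23). Cbx7, not in the list, had 4.20 at a TSS 38479 bases upstream. The median downstream Msl1 level was 2.14 (1.94 to 2.57) against 1.69 over all TSSs. For Nsl1 no member reached 3 downstream (0 of 40, against 0.677%), and the median was 1.11 (0.96 to 1.25) against 1.18. The highest of these Msl1 levels were 4.77 at Cxxc1, with 61 reads, and 4.73 at Eed, with 94. This count was chosen after the values had been seen.

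Base composition moves with this value. The members were richer in G and C within 500 bases of the TSS, with a median of 65.6% against 57.5% over all TSSs, and their median number of CpG dinucleotides was 88 against 54. Over all TSSs, the share with a downstream Msl1 level of at least 3 was 10.0% between 50% and 60% G+C, 21.8% between 60% and 70%, and 35.3% from 70% upward. The members counted 1 of 8, 4 of 19 and 5 of 11 in these classes. The 2 members below 50%, Ash1l and Dpy30, did not reach it, against 4.37% of all TSSs there. The median downstream level of the members was 2.13 between 50% and 60%, against 1.52 for all TSSs of that class, 2.06 against 2.13 between 60% and 70%, and 2.70 against 2.61 from 70% upward. The members were thus higher than other TSSs in the first of these classes and near them in the other two. At the TSS itself, their median Msl1 ratio was 2.34 against 2.04 between 50% and 60%, 2.31 against 2.92 between 60% and 70%, and 2.05 against 2.81 from 70% upward, so that the direction was not the same in all classes. The denominator differed too, since the local Msl1 level had a median of 14.3 reads per kb around the members and 11.1 around all TSSs, and it was above the latter at 35 of 40 genes. The local Nsl1 level was 13.9 against 12.8. The share of each of these in the ratios was not tested.

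Compared within each gene, the Msl1 level from 500 to 2000 bases was above that at the TSS at 20 of 40 members (50%, against 30.8% of all TSSs). Its interval lay above 1 at 8 genes (20%, against 5.95%) and below 1 at 8 (20%, against 24.4%). The highest at the TSSs used were Jarid2 at 3.15 (1.98 to 5.24), Cbx6 at 2.79 (1.42 to 5.97), Rybp at 2.67 (1.52 to 4.94) and Eed at 2.61 (1.65 to 4.28), and the lowest was Mtf2 at 0.44 (0.29 to 0.67). At other TSSs Jarid2 had 0.90 (0.52 to 1.55) 1239 bases upstream and 2.44 (1.62 to 3.79) 513 bases downstream. It had 0.61 (0.33 to 1.13) 109917 bases downstream. Cbx6 had 1.74 at a TSS 462 bases downstream. For Nsl1 the downstream level was the higher at 5 of 40 (12.5%, against 17.1%), Arid1a, Ash1l, Cbx8, Chd4 and Phc2. Each of these 5 had a low Nsl1 ratio at the TSS, from 0.56 to 1.14. The level at the TSS is the denominator of this value, so a low level there raises it by construction. The same holds for Msl1 at Jarid2, Cbx6 and Rybp, whose Msl1 ratios at the TSS were 1.13, 0.92 and 1.01. The interval of the Nsl1 value lay above 1 at Arid1a alone, at 2.48 (1.05 to 6.76), which is 2.5% of the members against 1.19% of all TSSs, and below 1 at 21 genes (52.5%, against 45.9%). At the Arid1a TSS 3158 bases upstream the Nsl1 value was 0.43 (0.25 to 0.73), with an interval below 1. At its TSS 29732 bases downstream it was 2.44 (0.96 to 7.37). The medians were 0.94 (0.63 to 1.5) for Polycomb and 1.03 (0.78 to 1.44) for activating genes with Msl1, and 0.52 (0.44 to 0.67) and 0.49 (0.42 to 0.96) with Nsl1.

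**Figure D3:**
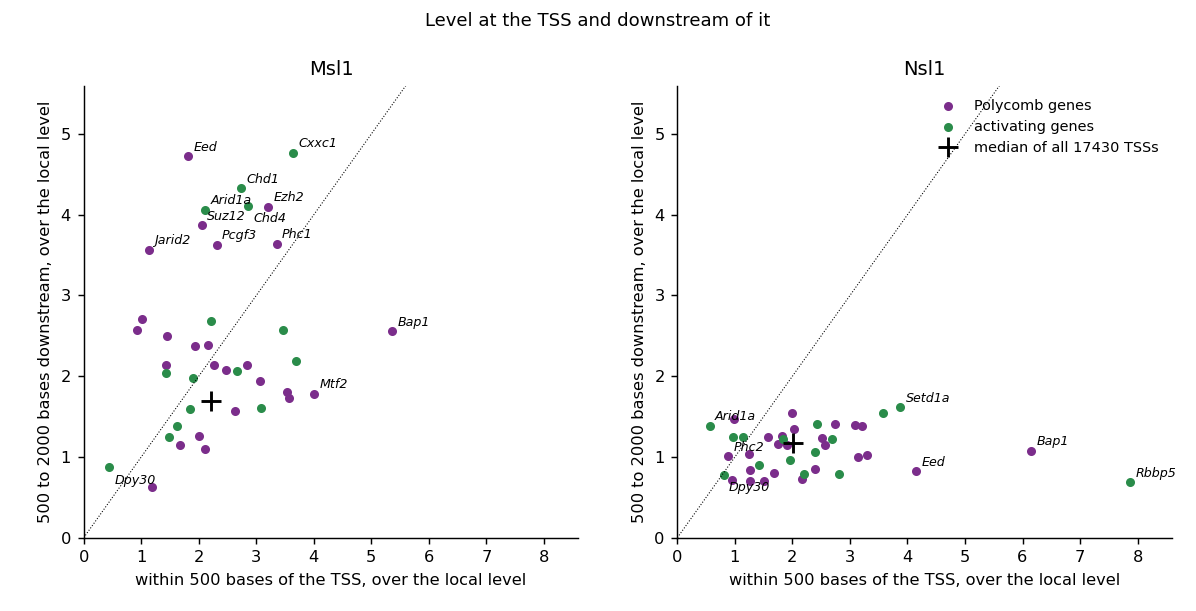
Level from 500 to 2000 bases downstream (vertical axis) against the level within 500 bases of the TSS (horizontal axis), both over the local level, with 1 point per gene, Msl1 at left and Nsl1 at right. The dotted line marks equal levels and the cross the median of all 17430 TSSs; 10 genes lie at or above 3 downstream for Msl1 and 0 for Nsl1.

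The bin of 500 bases with the highest Msl1 level between 2000 bases upstream and 5 kb downstream lay upstream of the TSS at 7 members, in the 500 bases after it at 16, from 500 to 2000 bases at 16 and farther at 1. These are 17.5%, 40%, 40% and 2.5% of the members, against 22.7%, 41.6%, 25% and 10.8% of all TSSs. For Nsl1 the counts were 20, 11, 4 and 5, or 50%, 27.5%, 10% and 12.5%, against 42.7%, 31.9%, 12.1% and 13.3%. The highest bin is chosen by its value, so for genes with few reads its place rests on a few of them. Summed over the 25 Polycomb genes, Msl1 was highest from 100 to 200 bases downstream, at 3.78 times the local level, and Nsl1 from 200 to 100 bases upstream, at 2.82 times. Polycomb genes were nearly as high from 400 to 500 bases for Msl1, with 144 reads in place of 145. Over the 15 activating genes Msl1 was about equal from 100 to 200 and from 600 to 700 bases downstream, with 73 and 74 reads, 3.43 and 3.48 times, and Nsl1 was highest from 300 to 200 bases upstream, at 4.49 times. Rbbp5 alone held 60 Nsl1 reads from 400 to 200 bases upstream, where the 100-base bins of all 15 genes held 60 and 93. Over all TSSs the highest bins were 200 to 300 bases downstream for Msl1, at 3.52 times, and the 100 bases before the TSS for Nsl1, at 4.03 times. From 2 to 5 kb downstream the Msl1 level was still 1.39 times the local level at Polycomb genes and 1.41 times at activating genes, against 1.20 times over all TSSs, and the Nsl1 level was 0.95, 1.00 and 1.02 times.

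**Figure D4:**
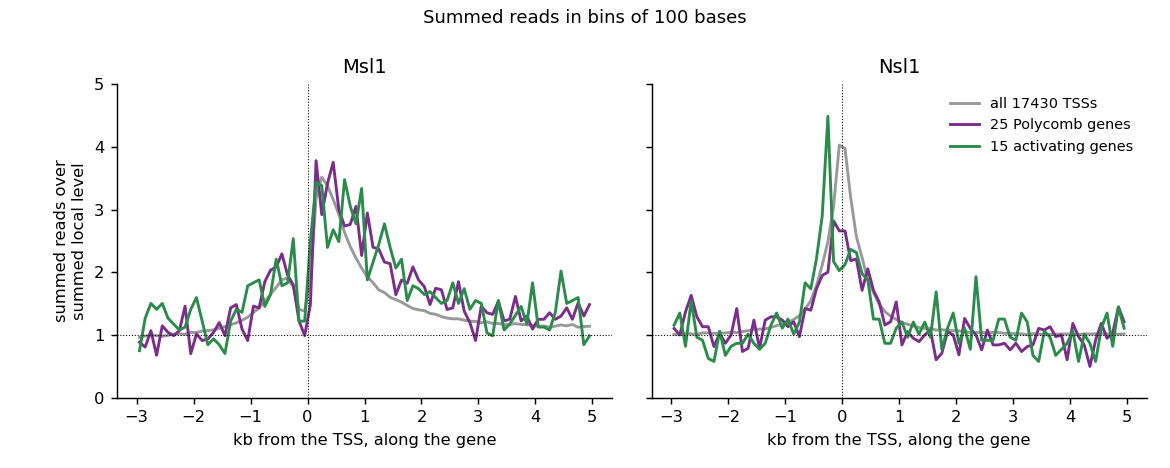
Summed reads over the summed local level in bins of 100 bases from 3 kb upstream to 5 kb downstream, for 25 Polycomb genes, 15 activating genes and all 17430 TSSs, with Msl1 at left and Nsl1 at right. Msl1 falls more slowly downstream of the TSS than Nsl1 and over all TSSs stays above 1 to 5 kb; each bin of the 2 gene sets holds few reads, and single bins of these lie below 1 for Msl1 too.

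The share of the reads within 500 bases that lay downstream of the TSS had a median of 66.7% (54.8 to 71.9) for Msl1 at Polycomb genes and 58.6% (45 to 77.8) at activating genes, against 63.2% over all TSSs. For Nsl1 it was 52.9% (39.5 to 56.7) and 44.4% (35.0 to 52.5), against 51.4%. Msl1 reads per library read within 2 kb of the TSS were 1.81 times the Nsl1 reads at the median member (1.45 to 2.01), 1.85 times at Polycomb and 1.77 times at activating genes, against 1.21 times over all TSSs, and they were higher in Msl1 at 37 of 40 genes (92.5%, against 68.3%). This value is not divided by the local level, which was also higher for Msl1 around the members.

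The annotated TSS decided what was seen at several genes, and 16 of the 40 have another protein-coding TSS at least 500 bases away. At Dpy30 the TSS 7550 bases downstream held 36 Msl1 reads, 3.26 times the local level (2.27 to 4.54), and 53 Nsl1 reads, 4.88 times (3.63 to 6.44). There Dpy30 was near the top of the members and not at their lower end. At Arid1a the TSS 3158 bases upstream of the TSS used held 55 Msl1 reads, 4.17 times (3.12 to 5.47), and 40 Nsl1 reads, 3.23 times (2.29 to 4.43), which is well above the 0.56 times of Nsl1 at the TSS used. At Phc1 the TSS 794 bases downstream had a Msl1 ratio of 4.97 and an Nsl1 ratio of 1.01, and at 2643 bases downstream they were 2.31 and 0.47, so the excess of Msl1 over Nsl1 stayed at both. At the TSS 566 bases upstream the ratios were 1.6 and 1.07, and the interval of Msl1 over Nsl1, at 1.49 (0.77 to 2.98), included 1. At the TSS 29732 bases downstream the Arid1a ratios were lower than at the TSS used, at 0.91 for Msl1 and 0.41 (0.15 to 0.90) for Nsl1. At Phc2 the TSS 34057 bases upstream had ratios of 2.19 and 1.93 and the TSS 38790 bases downstream 1.88 and 1.77, but the TSS 16201 bases downstream had 0.62 and 0.67, below the values at the TSS used. At Kdm2b the 6 TSSs ranged from 0.47 to 3.33 for Msl1 and from 0.81 to 1.96 for Nsl1. The low values of Dpy30, Arid1a and Phc2 above therefore depend on the TSS used, which was chosen by the longest coding sequence. So does the low Msl1 ratio of Bmi1, at 1.43 (0.81 to 2.33). It was 2.89 (1.98 to 4.08) at the TSS 789 bases downstream. At the TSSs 3354 and 3976 bases downstream it was 1.61 (0.97 to 2.53) and 2.10 (1.35 to 3.12). The values of Ash1l could not be compared with another TSS.

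**Figure D5:**
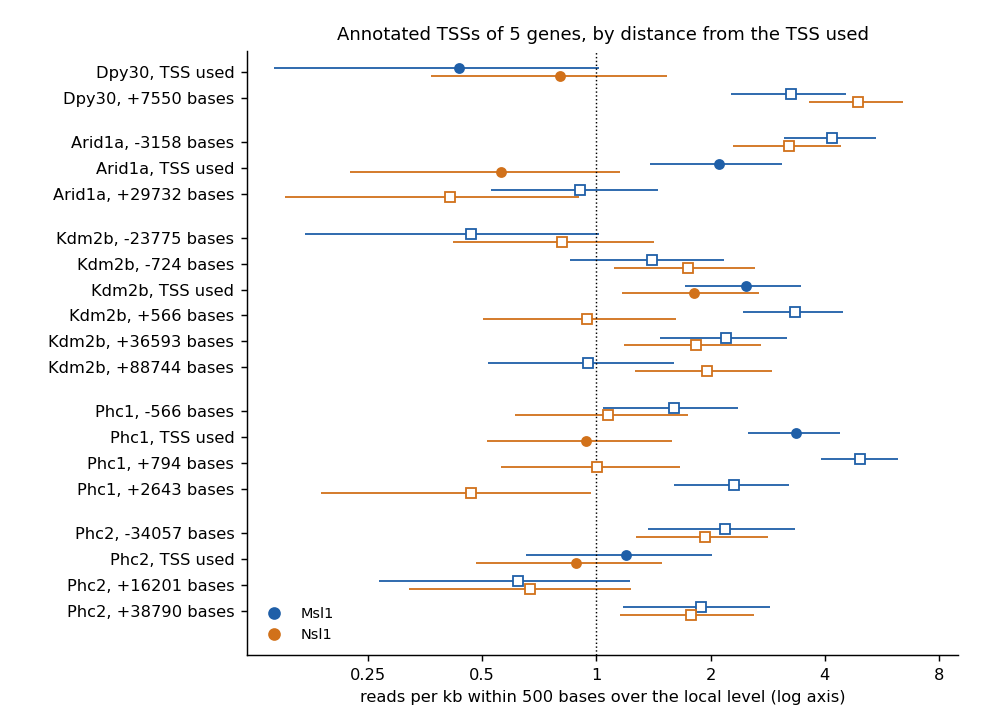
Reads per kb within 500 bases over the local level (log axis) at each annotated protein-coding TSS of 5 genes, with 95% counting intervals. Filled circles are the TSS used and open squares the others, labelled by their distance in bases; Dpy30 stands at 0.44 and 0.80 at the TSS used and at 3.26 and 4.88 at the TSS 7550 bases downstream.

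The promoters of the members were compared with all promoters from 250 bases upstream to 50 bases downstream of the TSS, on both strands. A GC box (GGGCGG) occurred at 28 of 40 members (70%, against 54.9% of all TSSs) and CCAAT at 14 (35%, against 36.9%). TATAAA occurred at 2 of 40 (5%, against 9.31%), the YY1 letters AAGATGGC at 4 (10%, against 3.72%), the ETS letters CCGGAAG at 4 (10%, against 13.4%), the E-box CACGTG at 4 (10%, against 8.84%), the NRF1 core CGCATGCG at 3 (7.5%, against 2.83%) and the CRE TGACGTCA at 1 (2.5%, against 2.78%). These shares of the members rest on 1 to 4 genes each. Another protein-coding TSS lay within 1 kb at 3 members (7.5%, against 12.6%), Bap1, Cbx6 and Smarcd1. These letters are a description and no evidence of binding.

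Other genes of the same pathways, from lists chosen with earlier results known, had higher median Msl1 ratios than the members, with intervals that overlapped theirs. Of 15 further Polycomb genes, 6 reached 3 for Msl1 and 3 for Nsl1, with medians of 2.70 (1.56 to 4.38) and 2.29 (1.59 to 2.66). Over all TSSs, 29.3% reached 3 for Msl1 and 29.8% for Nsl1. The highest Msl1 ratio was 5.09 at Asxl2, a relative of Asxl1, and the lowest 1.01 at Usp7. Of 26 further activating genes, 10 reached 3 for Msl1 and 6 for Nsl1, with medians of 2.74 (2.54 to 3.24) and 1.87 (1.01 to 2.94). Their Msl1 ratio ran from 0.80 at Chd8 to 7.58 at Hcfc1. The downstream Msl1 level was at least 3 at 5 of the 15 and at 12 of the 26, against 14.4% of all TSSs, so that these genes too had it more often than other TSSs. For Nsl1 the highest values were 4.46 at Rbbp4, which encodes a histone chaperone shared by PRC2 and NuRD, and 7.83 at Kdm6a, which encodes a demethylase of lysine 27.

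The Hox genes, classical targets of both systems, were lower. Over 38 Hox genes the median Msl1 ratio was 1.30 (1.15 to 1.53) and the median Nsl1 ratio 1.21 (0.95 to 1.43). The intervals lay above 1 at 11 and 9 of 38, against 31 and 28 of the 40 members and 66.4% and 62.7% of all TSSs. By medians the members were higher than these targets in both libraries, but so were all TSSs, at 2.21 and 2.02. The contrast is thus one of low Hox genes and not particular to the members. The Hox genes stand in clusters, so their local levels are made up in part of one another. Over 18 genes of histone acetyltransferases and deacetylases the medians were 2.33 and 2.30, near those of the members and of all TSSs.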

How the data were processed

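ChIP-seq libraries of mESCs, 1 for Msl1 and 1 for Nsl1, were analysed. According to the submitters' processing notes, the reads were processed with CASAVA 1.8.2 and Bowtie 0.12.7 on mm9. The files the authors deposited hold the position and strand of each aligned read, without normalization, and a score that is 255 on every line and was not used. No Input library was used here. The Msl1 file held 23888517 reads of 50 bases and the Nsl1 file 26084098 reads of 36 bases. Mitochondrial reads were left out and 1 read was kept per position and strand, which left 81.7% and 95.4% of the nuclear reads. Each read was moved to the middle of its fragment, whose length, from the cross-correlation of the strands, was 218 bases for Msl1 and 134 bases for Nsl1.

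TSSs were taken from GENCODE vM1 on NCBIM37 (mm9) as the 5′ end of the full-length protein-coding transcript with the longest coding sequence, and the names of all 40 genes were found. Sequences are from the same assembly. Windows were divided by their known bases, with no correction for mappability. The intervals are exact conditional intervals of the ratio of 2 Poisson counts, exact binomial (Clopper-Pearson) intervals for shares, and order-statistic intervals for medians, all at 95%. The interval of the Msl1 ratio over the Nsl1 ratio takes the local levels as fixed. Reads are not independent molecules, so these intervals cover counting error only. With 1 library per antibody no test was made. A fold of 3 over the local level and of 1.5 between the libraries was used to count genes. Genes are named in full where they rank among the first or last 4 members, and the others by their reads or range. The members and lists were chosen with earlier results of these data known. The NRF1 letters were shortened after the sequences had been seen. Hdac4 and Hoxa3, which the annotation lists more than once, were left out. The counting was tested on simulated data. Alternatives were all reads kept, other window sizes, shifts, denominators, TSSs and folds. Python 3.11.15, NumPy 2.4.6, SciPy 1.17.1, pandas 2.3.3, pysam 0.24.0 and matplotlib 3.10.9 were used.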

Additional observations from a re-analysis of the deposited data

How the results depend on the processing

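No paired analysis was possible because each antibody had 1 library. Over the counts and medians, 131 of 151 values under an alternative stayed within 1.5 times the main count or inside the interval of the main median. Of the 20 that did not, 11 came with another denominator. With the level of the whole genome in place of the local level, 30 members reached 3 for Msl1 (53.7% of all TSSs), 24 for Nsl1 (41.1%) and 34 for Msl1 downstream (36.3%), and the medians within 500 bases were 4.6 and 3.19 (Msl1 and Nsl1) for Polycomb and 4.07 and 3.08 for activating genes, against 3.15 and 2.57 over all TSSs. Within 2 kb they were 3.84 and 2.06 for Polycomb and 3.64 and 2.06 for activating genes. At a fold of 2, 24 members were counted for Msl1 (56.4% of all TSSs) and 20 for Nsl1 (50.5%), and at a fold of 4, 2 (12.3%) and 3 (19.1%). With reads within 1000 bases, 2 members reached 3 for Nsl1 (16.8% of all TSSs), and the median Msl1 ratio over the Nsl1 ratio was 1.30 for Polycomb and 1.5 for activating genes, against 1.08 over all TSSs. From reads within 2 kb per library read it was 1.85 and 1.77. For single genes, 860 of 960 values stayed inside the main interval. In all, 70 changed side of 1, and in 64 of these the main interval included 1, among them Dpy30, Arid1a and Phc2 at other TSSs. The 6 whose main interval did not include 1 were Eed, where Msl1 over Nsl1 was 1.33 within 1000 bases, Kdm2b, where the most 5′ TSS gave 0.47 for Msl1 and 0.81 for Nsl1 and the TSS with the most CpG gave 0.95 for Msl1, and Men1, where Msl1 over Nsl1 was 1.29 at the TSS with the most CpG and 1.04 with the genome level. The TSS with the most CpG, and the count of genes with Msl1 downstream, were chosen after seeing the data. The causes were not tested. Leaving out Chd4 was tried for 3 medians of the activating genes, those of the ratios within 500 bases and of Msl1 over Nsl1. All 3 stayed inside their intervals. Leaving out 1 gene can hardly move a median outside such an interval, so no conclusion is drawn from this.

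A window of 500 bases on either side of a TSS held as few as 5 reads, so small differences between single genes were not detectable. Repeated sequence was not corrected for, no Input was used, and 1 library per antibody gives no spread between replicates.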
